A study of Mus musculus with 9 samples.

Results

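The myeloid C-type lectin receptors described here are 10 genes chosen by name from a table of 41096 genes: Clec4a1, Clec4a2, Clec4a3, Clec4b1, Clec4d, Clec4e, Clec4n, Clec5a, Clec7a and Clec12a. All 10 were found on 1 row each. RNA sequencing measured them in peritoneal exudate cells of mice that lack Apoe, in 4 diabetic and 5 control samples, as FPKM (fragments per kilobase of gene, scaled to library depth). The diabetic mice had received streptozotocin, which destroys the insulin-producing beta cells, from 8 weeks of age in 5 daily doses of 40 mg/kg, and the control mice citrate buffer. Both groups carried the APOE-/- genotype, were then kept on a western diet for 8 weeks and were given 1.5 mL of 3% thioglycollate, an irritant that recruits leukocytes, 3 days before the cells were collected. The labels name the cells peritoneal macrophages and record no sorting step, and they do not say whether a sample is 1 mouse or a pool, so a p-value here weighs a difference against sample-to-sample spread, which may be technical in part. The question was how diabetes changes these receptors in exudate cells.

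C-type lectin receptors are surface proteins by which myeloid cells sense fungal and bacterial sugars and glycolipids, and also dying cells. Dectin-1 (Clec7a), the receptor of fungal beta-glucan, signals through a tyrosine motif in its own tail. Dectin-2 (Clec4n, for mannans), Mincle (Clec4e, for mycobacterial cord factor) and MCL (Clec4d, Mincle's partner) instead use the FcR gamma chain, encoded by Fcer1g. Both routes lead to the kinase Syk and the adaptor CARD9, and on to NF-kappaB. DCIR (Clec4a2) and MICL (Clec12a) carry inhibitory motifs that recruit the phosphatase SHP-1, encoded by Ptpn6. Most of these genes lie in clusters on 1 chromosome, and thioglycollate exudates hold macrophages, monocytes and neutrophils, which share many of the receptors.

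In the deposited table the 7 Clec4 members lie on chromosome 6 between 129371478 and 129771365, and Clec12a and Clec7a lie together between 136500198 and 136639650. Clec5a lies apart on the same chromosome (40002682 to 40015385, minus strand). These are the table's own coordinates, given with identifiers of the C57BL/6NJ strain gene set, and the build behind them is not given in the sources used here. All 10 genes were on the same chromosome in RefSeq's GRCm38.p6, and 0 had the same start, so the table's coordinates do not match the build in those notes. The table classes Clec7a (MGP_C57BL6NJ_G0010166) as a polymorphic pseudogene and the other members as protein coding.

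RefSeq's promoter table (GRCm38.p6) held 9 of the 10 members, all but Clec4n. The 250 bases before the start site are shown for 4 of them, printed 5' to 3' on the gene's own strand: Clec4a1 and Clec4a3, which are neighbours and behaved alike across the samples below, Clec7a, the receptor with the lowest unadjusted p, and Clec4e, whose induction in macrophages is known to need C/EBP beta. Capitals mark matches on either strand to GAGGAAG, the core of sites for the myeloid factor PU.1, to TTNNGCAA, a C/EBP pattern, or to TGANTCA, the AP-1 site.
Clec4a1 (chr6:122921598-122921847, plus strand): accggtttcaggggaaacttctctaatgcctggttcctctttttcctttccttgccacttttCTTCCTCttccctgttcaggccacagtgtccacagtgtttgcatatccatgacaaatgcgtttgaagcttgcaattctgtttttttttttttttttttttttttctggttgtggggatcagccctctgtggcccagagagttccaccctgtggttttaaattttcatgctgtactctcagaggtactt
Clec4a3 (chr6:122952265-122952514, plus strand): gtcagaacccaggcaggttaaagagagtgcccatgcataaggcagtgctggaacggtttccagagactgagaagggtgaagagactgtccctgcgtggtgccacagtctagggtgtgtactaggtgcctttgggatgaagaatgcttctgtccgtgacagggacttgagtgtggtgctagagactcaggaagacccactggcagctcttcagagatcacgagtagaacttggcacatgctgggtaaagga
Clec7a (chr6:129472786-129473035, minus strand): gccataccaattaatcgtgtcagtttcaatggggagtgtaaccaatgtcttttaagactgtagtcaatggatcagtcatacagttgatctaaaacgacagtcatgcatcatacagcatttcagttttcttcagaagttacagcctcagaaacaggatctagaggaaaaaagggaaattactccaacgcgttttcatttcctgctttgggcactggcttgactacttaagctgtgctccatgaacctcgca
Clec4e (chr6:123289872-123290121, minus strand): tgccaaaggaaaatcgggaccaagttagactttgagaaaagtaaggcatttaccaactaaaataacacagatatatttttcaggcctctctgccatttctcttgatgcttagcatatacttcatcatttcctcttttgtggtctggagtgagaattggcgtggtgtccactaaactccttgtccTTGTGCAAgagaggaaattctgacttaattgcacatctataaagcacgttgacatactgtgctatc
The PU.1 letters were found once before Clec4a1, with the match beginning 188 bases before the start, and the C/EBP letters once before Clec4e, beginning 66 bases before the start. The windows of Clec4a3 and Clec7a held none of the 3 motifs. Among the 9 members, the PU.1 letters stood in 4 windows (Clec4a1, Clec4d, Clec5a and Clec12a), the C/EBP letters in 2 (Clec4e and Clec12a) and the AP-1 letters in 1 (Clec12a). The shares over 27025 RefSeq promoters of the same length were 10.4%, 9.55% and 6.87%. The Clec12a window lies wholly within an exon of a GENCODE transcript, so it may not be that gene's promoter. The windows of Clec4a2 and Clec5a overlap such exons in part, over 68 and 16 of their 250 bases. These matches are letters in a window, not measured binding.

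Each library held 14156421 to 16169060 reads in genes. The first principal component (36.0% of the variance) put diabetic 1, 2 and 4 between 20.9 and 30.5, diabetic 3 at 1.44 and the 5 control samples between -23.5 and -11.2. Diabetic 3 therefore stands apart from its group, and the receptors and gene lists are given with and without it. It was singled out from these same data, on a component that separates the groups. Fits without it therefore lean towards group differences: 1126 genes passed without diabetic 3, against 533 with all samples. Markers of lymphocytes were present although the labels name macrophages: 12 T cell markers summed to 469, 729, 244 and 664 FPKM in diabetic 1 to 4, against 152 to 196 FPKM in control samples. The 13 general macrophage markers in the table, Adgre1, Cd68 and Csf1r among them, summed to 8479 to 14032 FPKM in diabetic samples and 10614 to 16923 FPKM in control samples. In such mixtures fewer cells of a type and less RNA per cell cannot be told apart.

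Per length, the lectin receptors spanned a wide range of levels. Clec4a1 was highest at a mean of 140.2 FPKM over the 9 samples, 57.3 times the level of Clec5a, the lowest at 2.45 FPKM. Clec4d (122 FPKM), Clec4a3 (86.0), Clec7a (56.5), Clec12a (41.3), Clec4a2 (23.0), Clec4b1 (19.7), Clec4e (15.1) and Clec4n (13.2) lay between them. Neighbours in this order were not always apart: Clec4a1 was above Clec4d in 6 of 9 samples, Clec4b1 above Clec4e in 5 and Clec4e above Clec4n in 6. Clec12a was above Clec4a2, and Clec4n above Clec5a, in all 9. The summed level of the 10 genes was 383, 455, 735 and 419 FPKM in diabetic 1 to 4, against 477, 586, 458, 545 and 619 FPKM in control 1 to 5. Diabetic 3 had the highest sum of all samples, and the other diabetic samples lay below every control sample.

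In the comparison of diabetic with control samples no lectin receptor passed the test (limma on log2(FPKM + 1), Benjamini-Hochberg adjusted p below 0.05 over all genes tested). All 10 members exceeded the filter on low values. The count was 0 of 10 members, where 4.76% of the 11193 genes tested passed, 2.68% higher and 2.08% lower in diabetic samples. Only Clec7a had an unadjusted p below 0.05, which 22.4% of all genes tested had, and limma-voom on recovered reads also called 0 members, with 5.04% of all genes called. Log2 fold changes were negative for 7 members and positive for 3, with a median of -0.26, while the median over all genes tested was -0.013 and 52.3% of them were negative. No member had groups that were fully apart, which 9.42% of all genes tested did. Without diabetic 3 the picture moved: Clec7a and Clec4a3 passed, 2 of 10 members and both lower in diabetic samples, where 10.2% of the 11076 genes tested passed and 4.89% of the genes tested passed as lower. In that fit 8 members were negative and their median was -0.52 (-0.018 over all genes).

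**Figure D1:**
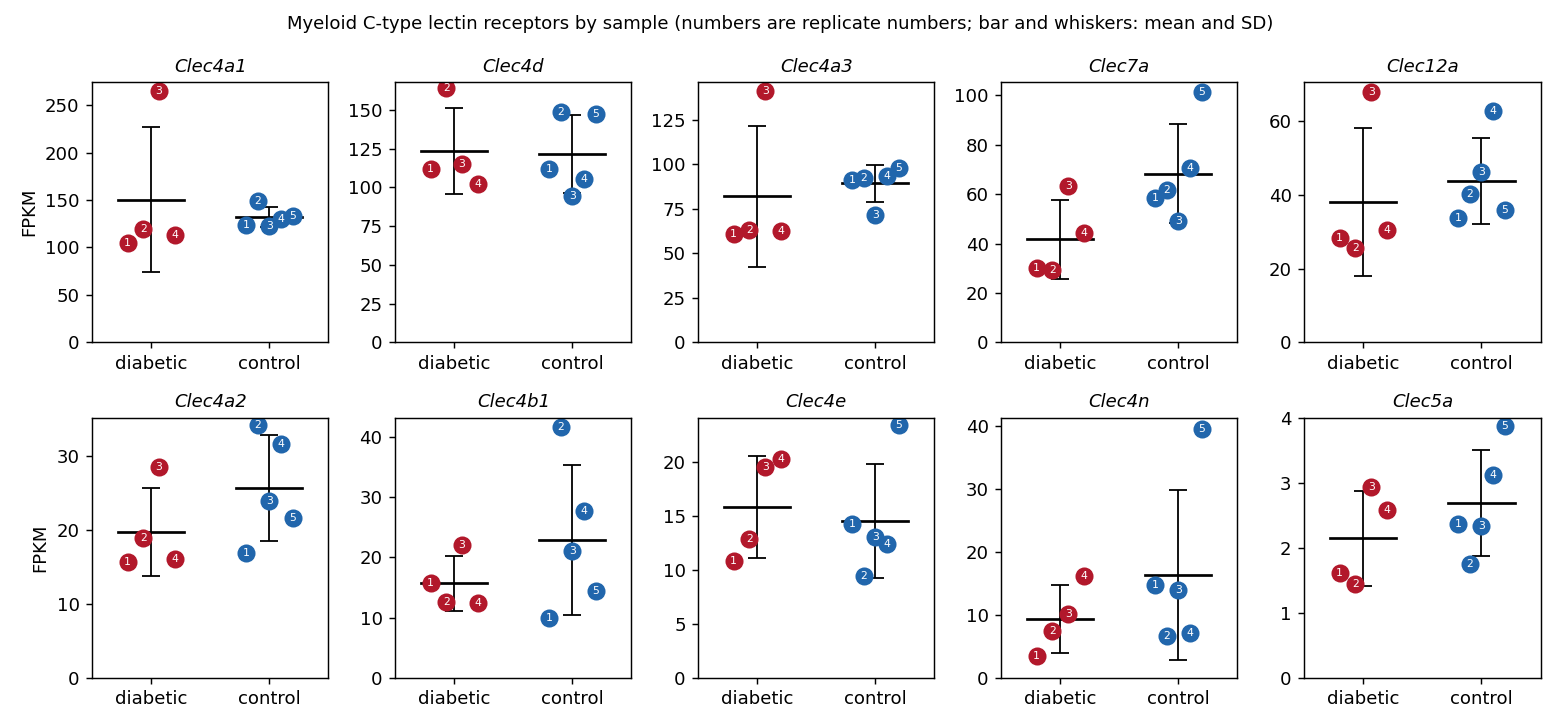
FPKM of each receptor (y axes, from 0) in the 4 diabetic and 5 control samples (x axes), ordered by mean level; points carry the replicate number, and bars and whiskers show the mean and SD. Diabetic 3 stands above the other diabetic samples for Clec4a1, Clec4a3 and Clec12a, and control 5 stands above the other samples for Clec4n.

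Among the activating receptors, Clec7a had the largest log2 difference with all samples, while that of Clec4n was larger with array weights and without diabetic 4, control 2 or control 4. Its level was 30.0, 29.3, 63.4 and 44.1 FPKM in diabetic 1 to 4, against 58.4, 61.7, 49.1, 70.7 and 101 FPKM in control 1 to 5. Diabetic 1, 2 and 4 lay below every control sample, and diabetic 3 lay inside the control range, above control 1, 2 and 3. The means were 41.7 ± 16.0 FPKM in diabetic samples (SD, n = 4) and 68.3 ± 20.1 FPKM in control samples (SD, n = 5), a log2 fold change of -0.73 (SE 0.26) that did not pass (limma, adjusted p = 0.13). Without diabetic 3 the log2 fold change was -0.95 (SE 0.22) and passed (limma, adjusted p = 0.029). With array weights it passed as well (adjusted p = 0.032), where 11.7% of all genes did. Over all 18 alternatives the adjusted p ran between 0.029 and 0.37. Each library held 1141 to 4314 reads of this gene.

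Clec4n, which encodes Dectin-2, varied most from sample to sample. It stood at 3.45, 7.35, 10.2 and 16.2 FPKM in diabetic 1 to 4, against 14.7, 6.65, 13.9, 7.02 and 39.5 FPKM in control 1 to 5. The groups overlapped almost throughout, and control 5 stood alone at the top, with diabetic 4 next. The log2 fold change was -0.63 (SE 0.52; limma, adjusted p = 0.52), and with 1 sample removed it ran from -0.93 (without diabetic 4) to -0.25 (without control 5). With array weights it was -1.14, and it did not pass in any of the 18 alternatives. Neutrophil markers ran in a similar but not identical order over the samples. The 15 neutrophil markers fixed in the lists, among them S100a8, S100a9, Cxcr2 and Ly6g, summed to 211, 378, 349 and 613 FPKM in diabetic 1 to 4, against 662, 203, 566, 198 and 1243 FPKM in control 1 to 5. The 4 samples with the highest marker sums (control 5, control 1, diabetic 4 and control 3) were also the 4 with the highest Clec4n. Below them the orders differed: control 4 had the lowest marker sum but more Clec4n than diabetic 1 (7.02 against 3.45 FPKM). None of the 15 was at 0 in all samples, and of the 11 tested 0 passed. The part of neutrophil RNA in the Clec4n values was not tested.

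Clec4e, which encodes Mincle, had 10.9, 12.8, 19.5 and 20.2 FPKM in diabetic 1 to 4, against 14.2, 9.45, 13.03, 12.4 and 23.4 FPKM in control 1 to 5. Control 5 was again the highest sample, and diabetic 3 and 4 lay above the other control samples. The log2 fold change was 0.14 (SE 0.25; limma, adjusted p = 0.79) and took the other sign with array weights (-0.12). Clec4d, encoded next to it, was far more abundant at 112, 164, 115 and 102 FPKM in diabetic 1 to 4, against 112, 149, 94.3, 105 and 148 FPKM in control 1 to 5. Its groups covered nearly the same range, with a log2 fold change of 0.021 (SE 0.18; limma, adjusted p = 0.96), whose sign changed in 4 of 9 fits with 1 sample removed. An absent call does not show equal levels.

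**Figure D2:**
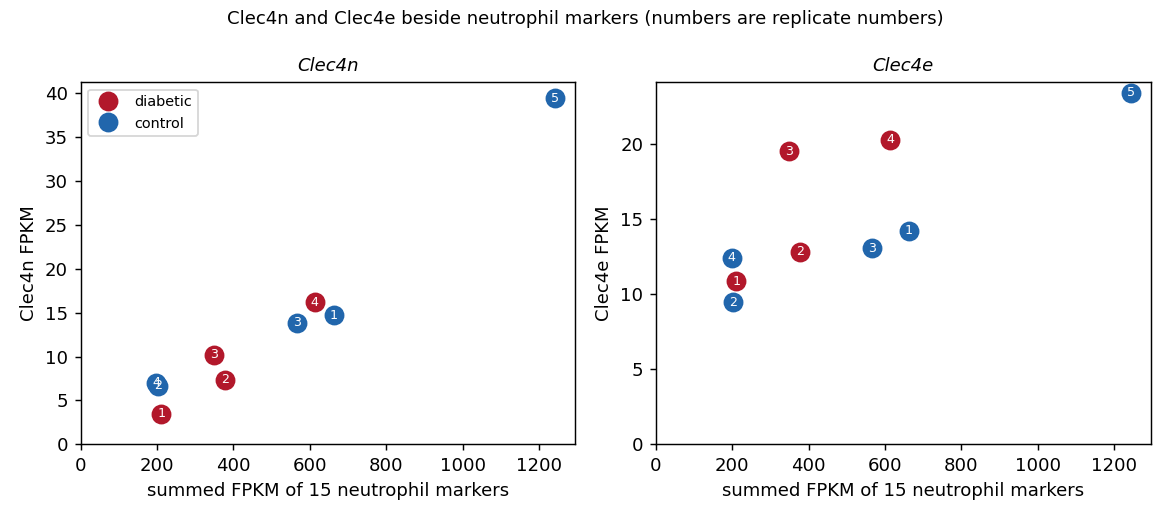
Clec4n and Clec4e (y axes, FPKM) against the summed FPKM of 15 neutrophil markers (x axes) in each sample; points carry the replicate number, red for diabetic and blue for control. Control 5 is at the top right in both panels, at 1243 FPKM of marker sum and 39.5 FPKM of Clec4n and 23.4 FPKM of Clec4e.

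Clec5a, encoding MDL-1, a receptor that pairs with the adaptors DAP12 and DAP10, was the lowest member, with 82 to 240 reads per library. It had 1.61, 1.45, 2.93 and 2.59 FPKM in diabetic 1 to 4, against 2.36, 1.75, 2.33, 3.12 and 3.88 FPKM in control 1 to 5. Diabetic 1 and 2 lay below all control samples and the other samples were mixed (log2 fold change -0.23, SE 0.20; limma, adjusted p = 0.52). Clec4b1, an activating relative of DCIR known as DCAR, had 15.8, 12.5, 22.0 and 12.3 FPKM in diabetic 1 to 4, against 9.85, 41.7, 21.1, 27.7 and 14.4 FPKM in control 1 to 5. Its control samples spread beyond the diabetic range on both sides (log2 fold change -0.40, SE 0.36; limma, adjusted p = 0.56). It was -0.15 without control 2 and -0.64 without control 1.

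The Clec4a genes, mouse relatives of human CLEC4A, and Clec12a showed another arrangement of samples. Clec4a1, named Dcir4 in RefSeq's synonyms, had 105, 119.9, 265 and 113 FPKM in diabetic 1 to 4, against 124, 149, 123, 131 and 133 FPKM in control 1 to 5. Diabetic 3 was the highest of all 9 samples and diabetic 1, 2 and 4 were below all control samples. Over all samples the log2 fold change was 0.081 (SE 0.24; limma, adjusted p = 0.87), and without diabetic 3 it was -0.23 (SE 0.10; limma, adjusted p = 0.20).

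Clec4a3, named Dcir3, had 61.0, 63.3, 141 and 62.4 FPKM in diabetic 1 to 4, against 91.0, 92.4, 71.2, 93.5 and 98.0 FPKM in control 1 to 5. Its diabetic samples other than diabetic 3 lay close together and below every control sample. The log2 fold change was -0.21 (SE 0.23; limma, adjusted p = 0.64), and without diabetic 3 it was -0.51 (SE 0.12) and passed (limma, adjusted p = 0.025).

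Clec12a had 28.2, 25.5, 68.1 and 30.4 FPKM in diabetic 1 to 4, against 33.7, 40.4, 46.2, 62.9 and 35.9 FPKM in control 1 to 5. Again diabetic 3 was above, and the other diabetic samples below, all control samples. The log2 fold change was -0.28 (SE 0.28; limma, adjusted p = 0.60) with all samples and -0.59 (SE 0.18; limma, adjusted p = 0.069) without diabetic 3. Clec4a2, the inhibitory DCIR, had 15.7, 18.9, 28.4 and 16.1 FPKM in diabetic 1 to 4, against 16.9, 34.1, 23.9, 31.6 and 21.5 FPKM in control 1 to 5. For this gene diabetic 3 stayed inside the control range, and the groups overlapped (log2 fold change -0.36, SE 0.22; limma, adjusted p = 0.38). The other members did not pass without diabetic 3 either: log2 fold changes were -0.54 for Clec4a2, -0.57 for Clec4b1, -0.72 for Clec4n, -0.35 for Clec5a, 0.046 for Clec4d and 0.026 for Clec4e (limma, adjusted p of 0.13 to 0.96).

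**Figure D3:**
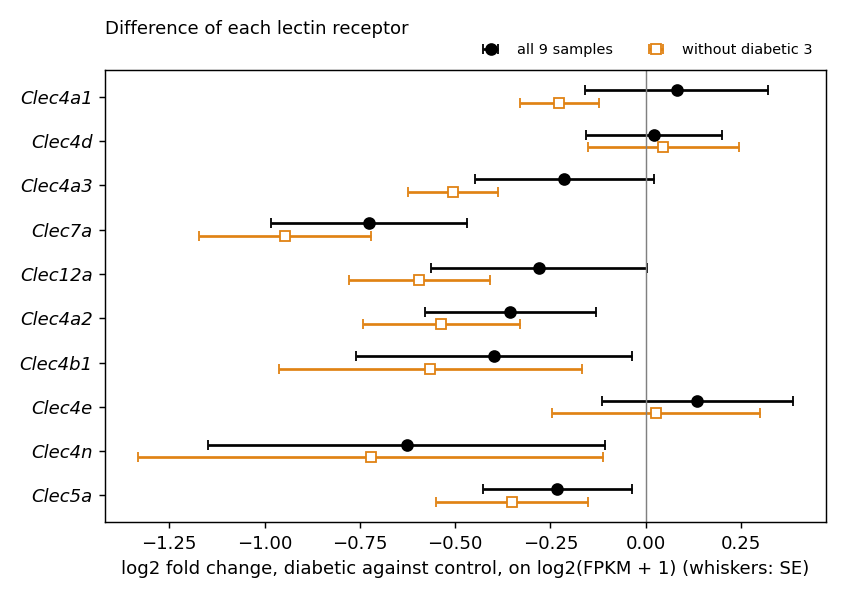
Log2 fold change of each receptor, diabetic against control, on log2(FPKM + 1) (x axis; whiskers show the SE), with all 9 samples (black) and without diabetic 3 (open orange), genes ordered by mean level (y axis). Clec7a is lowest with all samples, at -0.73, and Clec4a1 changes sign without diabetic 3, to -0.23.

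Across the members, diabetic 3 was the highest diabetic sample for 7 of 10, while it was so for 32.5% of all genes tested. It was the highest of all 9 samples for Clec4a1, Clec4a3 and Clec12a, 3 of 10 members and 12.3% of all genes tested. Without diabetic 3, the diabetic values of Clec4a1, Clec4a3, Clec7a and Clec12a all lay below the control values, 4 of 10 members where this held for 9.93% of all genes tested. Each of these genes had its highest diabetic value in diabetic 3, so leaving that sample out favours this outcome. Diabetic 3 also had the lowest T cell marker sum (244 FPKM) and the highest macrophage marker sum (14032 FPKM) of its group. The part of cell mixture in these values was not tested. Control 5 was the highest of all samples for Clec4e, Clec4n, Clec5a and Clec7a, 4 of 10 members, where this held for 9.64% of all genes tested. The activating receptors Clec4b1 and Clec4d did not share this. Clec4b1 was highest in control 2 (41.7 FPKM, control 5 at 14.4 FPKM) and Clec4d in diabetic 2 (164 FPKM, control 5 at 148 FPKM).

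**Figure D4:**
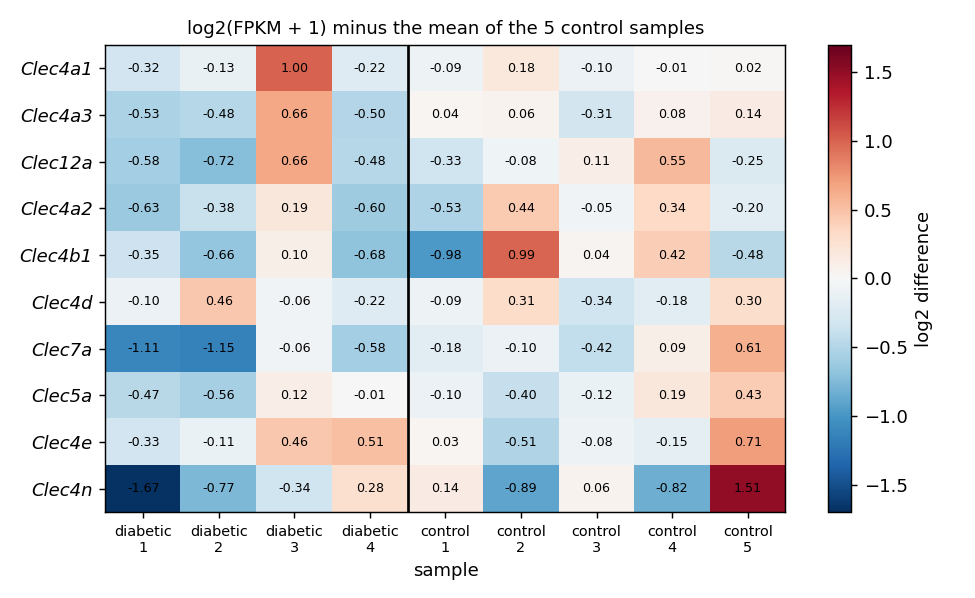
Each receptor's log2(FPKM + 1) minus its mean over the 5 control samples (colour and number), genes in rows and samples in columns, diabetic left of the line. Diabetic 3 reaches 1.004 for Clec4a1, while control 5 reaches 1.51 and diabetic 1 reaches -1.67 for Clec4n.

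The 3 members that varied most over the samples were compared with every other gene tested, by the root mean square difference of the log2(FPKM + 1) profiles over 9 samples, each centred on its mean. Closest to Clec4n (SD 0.91) were Ifitm1 (0.28), Osgin1 (0.29) and Il1rn (0.34), the last of which encodes the interleukin-1 receptor antagonist. Il1rn, like Clec4n, was highest in control 5, at 58.0 FPKM against 12.1 to 30.4 FPKM in the other samples. Closest to Clec4b1 (SD 0.62) were Qpct (0.22), Cdk18 (0.26) and the endoglin gene Eng (0.26). Closest to Clec7a (SD 0.57) were Dna2 (0.21), Cass4 (0.21) and the phosphatase gene Ptpre (0.23). None of these 9 genes passed the test (limma, adjusted p of 0.096 to 0.71), and all values share the same libraries. They were picked for likeness to members that did not pass, so this is no separate result.

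Genes lying next to the receptors were read from the same fit. Of 8 different tested neighbours that are no members, only Cd69, the early activation antigen before Clec12a, changed, and it rose (log2 fold change 1.17, SE 0.23; limma, adjusted p = 0.023). The call held in 5 of 9 fits with 1 sample removed, not without diabetic 1, diabetic 2, diabetic 4 or control 3. It had 7.82, 8.82, 4.49 and 11.8 FPKM in diabetic 1 to 4, against 1.96 to 4.16 FPKM in control samples. Diabetic 3, the lowest of its group for Cd69, also had the lowest T cell marker sum there (244 FPKM). The part of lymphocyte RNA in the Cd69 values was not tested. Clec4a4, a further Clec4a gene between Clec4a3 and Clec4b1, stayed at 0.095 to 2.43 FPKM (log2 fold change -0.28, SE 0.27; limma, adjusted p = 0.58). Olr1, the oxidised LDL receptor gene beyond Clec7a, had a log2 fold change of -0.36 (SE 0.42; limma, adjusted p = 0.66), with its highest value in control 5 (7.82 FPKM).

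Of 33 further C-type lectin genes listed, 15 were tested. Of these 1 rose and 1 fell (median log2 fold change 0.16), where 4.76% of all genes tested passed. The rise was Cd69 and the fall was Mrc1, the mannose receptor, at 24.5 ± 11.1 FPKM in diabetic samples (SD, n = 4) and 52.6 ± 12.4 FPKM in control samples (SD, n = 5). Mrc1 too was highest among diabetic samples in diabetic 3, at 41.0 FPKM. Removing any 1 sample other than diabetic 3 ended its call, 8 of 9 fits. Without diabetic 3, 2 of the 15 rose and 1 fell, where 10.2% of all genes tested passed. Clec2h and Clec4b2 were listed at 0 in all samples.

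Of 22 adaptor and Syk-Card9 genes of the signalling chain below the receptors, 0 rose and 1 fell (median log2 fold change 0.028), a share close to the 4.76% of all genes tested. The fall was Prkcd, the kinase PKC delta that acts between Syk and CARD9, at 71.6 ± 7.38 FPKM in diabetic samples (SD, n = 4) and 96.5 ± 8.30 FPKM in control samples (SD, n = 5; log2 fold change -0.43, SE 0.11; limma, adjusted p = 0.049). Removing 1 sample at a time kept it past the threshold in 2 of 9 fits, those without diabetic 3 or control 4. Card9 itself had 25.3, 23.3, 24.9 and 20.1 FPKM in diabetic 1 to 4, against 28.7, 36.3, 32.5, 33.0 and 25.9 FPKM in control 1 to 5. All its diabetic samples lay below all control samples, as for 9.42% of genes tested in either direction, yet it did not pass (log2 fold change -0.40, SE 0.12; limma, adjusted p = 0.078). Syk had a log2 fold change of -0.092 (SE 0.13; limma, adjusted p = 0.71), and Fcer1g, at 951 ± 218 FPKM in diabetic samples (SD, n = 4) and 1115 ± 187 FPKM in control samples (SD, n = 5), one of -0.24 (SE 0.17; limma, adjusted p = 0.45). Without diabetic 3, 0 of the 22 rose and 2 fell, where 10.2% of all genes tested passed. Card9 (log2 fold change -0.43), Syk (-0.074) and Fcer1g (-0.38) again did not pass in that fit.

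Among 10 inhibitory phosphatases, adaptors and ubiquitin ligases, 1 rose and 2 fell (median log2 fold change -0.22), where 4.76% of all genes tested passed. Dok2, an adaptor that restrains Ras signalling, fell to 84.4, 82.8, 98.2 and 83.9 FPKM in diabetic 1 to 4, against 136, 179.6, 166, 148 and 152 FPKM in control 1 to 5. The groups were far apart (log2 fold change -0.83, SE 0.11; limma, adjusted p = 0.0054), and the call held whichever 1 sample was removed (9 of 9 fits). Inppl1, the lipid phosphatase SHIP2, fell as well (log2 fold change -0.68, SE 0.14; limma, adjusted p = 0.023), and held in 6 of those fits, not without diabetic 2, diabetic 4 or control 3. Cblb, a ubiquitin ligase known to target dectin signalling, rose (log2 fold change 0.39, SE 0.086; limma, adjusted p = 0.031) and held in 2, those without diabetic 3 or control 2. Ptpn6, which encodes the SHP-1 recruited by DCIR and MICL, had a log2 fold change of -0.083 (SE 0.12; limma, adjusted p = 0.72), and -0.15 without diabetic 3. In that fit 1 of the 10 rose and 3 fell, where 10.2% of all genes tested passed.

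Of 14 tested inflammatory targets of the pathway, 1 rose and 1 fell (median log2 fold change -0.076), where 4.76% of all genes tested passed. Egr2, an early response factor that Dectin-1 signalling induces, fell to 3.49 ± 0.947 FPKM in diabetic samples (SD, n = 4), against 7.21 ± 1.63 FPKM in control samples (SD, n = 5; log2 fold change -0.87, SE 0.18; limma, adjusted p = 0.024). Nfkbia, the NF-kappaB inhibitor, rose (log2 fold change 0.48, SE 0.12; limma, adjusted p = 0.0496). With 1 sample removed, Egr2 held in 5 of 9 fits, not without diabetic 2, diabetic 4, control 3 or control 4, and Nfkbia in 2, those without diabetic 3 or control 5. Of 9 tested myeloid transcription factors 0 passed (median -0.13). Spi1, which encodes PU.1, had a log2 fold change of -0.21 (SE 0.12; limma, adjusted p = 0.32), Irf8 one of 0.35 (SE 0.099; limma, adjusted p = 0.073) and Cebpa one of -0.50 (SE 0.15; limma, adjusted p = 0.081). Without diabetic 3, Cebpa passed (log2 fold change -0.59; limma, adjusted p = 0.032), the 1 fall among the 9 factors, while Spi1 (-0.29) and Irf8 (0.35) again did not pass, and 1 of the 14 targets rose and 1 fell. The 5 lists together then held 12 changed genes of 70, where 10.2% of all genes tested passed, against 8 of 70 with all samples, where 4.76% did.

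Cell types of the exudate were read from marker lists, where 4.76% of all genes tested passed. Of 7 tested dendritic cell markers 2 rose, Ccr7 and Dpp4, and 1 fell, Batf3. That list summed to 157 to 259 FPKM in diabetic samples, against 112 to 161 FPKM in control samples, with diabetic 3 the lowest of its group. Of 12 tested general macrophage markers 0 passed (median log2 fold change -0.20; Cd14 -0.30 and Csf1r -0.32), and 11 of 12 were negative. Read relative to that macrophage list, the log2 differences were -0.56 for Clec7a, -0.46 for Clec4n, -0.050 for Clec4a3 and 0.24 for Clec4a1, and again no member passed. That rescaling moved the median of all genes by 0.16. Among large peritoneal macrophage markers 1 of 11 tested fell (Cd9, log2 fold change -0.52) and 0 rose, 3 of 11 were negative and the median was 0.27. The Cd9 call held in 3 of 9 fits with 1 sample removed. Lymphocyte lists rose in part, 10 of 12 T cell markers, 4 of 12 B cell markers and 2 of 8 natural killer cell markers, with 0 lower in each. Without diabetic 3, where 10.2% of all genes tested passed, 11 T cell, 5 B cell and 2 of 6 tested natural killer cell markers rose. In that fit 2 dendritic cell markers rose and 1 fell. For large peritoneal macrophage markers 1 rose and 1 fell, and 0 general macrophage or neutrophil markers passed. With all samples, of 6 mast cell and basophil markers and 3 eosinophil markers 0 passed, with log2 fold changes of -1.62 for Tpsb2 and -1.27 for Siglecf.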

How the data were processed

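Gene expression was measured in 4 diabetic and 5 control samples. Per the file headers, the authors deposited FPKM values per gene with gene length and position. GRCm38 and mm10 stand in the submitters' processing notes; aligner and counter: not given in the sources used here. Each of the 9 value columns matched 1 sample title. FPKM times length gave whole reads for 100% of values (within 0.05), hence the depth. Rows without a name took the UniProt match in the table's description (386 genes). The 11193 genes that reached 1 FPKM in 4 or more samples entered a two-sided limma fit (version 3.58.1, R 4.3.3) of log2(FPKM + 1) with trend and robust moderation. This scale understates changes of low genes. Close relatives within the Clec4a genes may share reads. Simulated data with known changes were used to test the fit. Members and lists were chosen with earlier results of these data known. Named genes are the members, Spi1, Syk, Card9, Fcer1g and Ptpn6, up to 4 passing genes per pathway list (2 by smallest p where none passed), up to 2 per cell type list, the closest profiles and the nearest neighbours. The monocyte list is not reported here. Values of Il1rn and Olr1 by sample were chosen after they were seen.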

Additional observations from a re-analysis of the deposited data

Results flagged for a closer look

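A total of 5 values stood far from the other samples of their group, judged by the gap to the nearest sample over the group's range (Dixon's test), among 30 groups of 15 genes, the members with Spi1, Syk, Card9, Fcer1g and Ptpn6. Chance flags about 1 in 20 groups. Diabetic 3 was high for 3 members, Clec4a1 (265 FPKM), Clec4a3 (141 FPKM) and Clec12a (68.1 FPKM), as it was for 1.94% of all genes tested. Control 5 was high for Clec4n (39.5 FPKM), as for 0.491% of all genes tested. Control 3 was low for Clec4a3 (71.2 FPKM).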

How the results depend on the processing

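Of 179 refits of single members under 18 alternatives, 169 kept the sign and the side of the threshold, 3 passed newly and 7 changed sign. Clec7a passed without diabetic 3 (-0.95) and with array weights (-0.92), and Clec4a3 without diabetic 3 (-0.51). The sign changed for Clec4a1 with array weights (-0.093) and without diabetic 3 (-0.23), for Clec4e with array weights (-0.12), and for Clec4d without diabetic 2 (-0.12), control 1 (-0.0027), control 3 (-0.064) or control 4 (-0.025). The cause was not tested. With 1 sample removed, Clec4a1 ran between -0.23 and 0.22 and Clec4d between -0.12 and 0.10. The number of members that passed was 1 with array weights and 0 to 2 when 1 sample was removed. The number of genes changed, 533 (56.3% higher), became 183 with no filter (70.5% higher), 104 relative to the macrophage list (88.5% higher), 1304 with array weights and 115 to 1126 when 1 sample was removed. The 8 changed genes on the pathway lists became 1 with no filter, 2 relative to the macrophage list, 16 with array weights and 1 to 12 when 1 sample was removed. With the replicate number as a block, 62 genes changed (72.6% higher), 1 listed gene and 0 members. Control 5 is the only sample of its number, so the block takes it out of the group difference. The log2 differences of the members then equal those without control 5 (Clec7a -0.57 and Clec4n -0.25 in both), and only the p-values differ. These refits are therefore not separate in sign or size. The values gave no sign that the numbers pair the samples, though such a check cannot exclude it. Deviations of same-numbered samples correlated at 0.023, 0.16, -0.26 and -0.18. Only 1 of 4 diabetic samples correlated best with its own number. Clec5a had no value with the filter of FPKM of at least 5. Depth limits Clec5a and Clec4n most, with 82 and 77 reads in their lowest libraries.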
